A study of Mus musculus with 12 samples.

Results

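Hearts of diabetic mice (D) and control mice (C) that had received neither pargyline nor any other inhibitor of monoamine oxidase were compared on 6 of the 12 miRNA arrays of the series, 3 arrays titled Diabetic and 3 titled Control, each from the heart of 1 male C57BL6/J mouse aged 5 months. Diabetes was induced from an age of 6 to 7 weeks with intraperitoneal streptozotocin, a toxin of the insulin-producing pancreatic beta cells, in 5 daily doses of 50 mg/kg, and mice counted as diabetic from a blood glucose of 17 mM. Both groups were then on vehicle for 12 weeks. Streptozotocin is a chemical model of insulin deficiency, so an effect of the toxin itself and one of the diabetes that follows cannot be told apart in this design. The array carries probes for 1881 mouse miRNAs, of which 216 were detected by the scanner software on at least 1 of the 6 arrays, 128 on all 6 and 88 on some. Levels were compared on the 128, and gain or loss of detection was described for the 88.

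A miRNA is a short RNA cut by the enzymes Drosha and Dicer from a hairpin in a longer transcript and loaded into an Argonaute protein, where it directs the repression of mRNAs that pair with its seed, the bases near its 5′ end. Related genes often encode miRNAs with the same seed, which form a family, and neighbouring hairpins cut from 1 transcript form a genomic cluster. In the heart the muscle miRNAs miR-1, miR-133, miR-208 and miR-499 are made by cardiomyocytes, while others mark vessels, fibroblasts or blood cells.

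The C arrays were dimmer than the D arrays. Between 144 and 163 miRNAs were detected per C array (median 146) and between 165 and 203 per D array (median 179), and their signals summed to between 27107 and 35028 on the C arrays and between 48104 and 61254 on the D arrays. Before normalization the median log2 change of the 128 miRNAs was 0.77, a 1.70-fold higher signal in D, and of 10 array control features detected on all 6 arrays 7 were also higher on every D array than on every C array (median log2 change over the 10 of 0.85). All 6 arrays lay on 1 slide, with the C arrays in row 1 and the D arrays in row 2, so that array row and group cannot be told apart. The log2 signals were therefore normalized by cyclic loess, so that a change stands for a shift against the average of the 128 miRNAs unless a value is called unnormalized, while all signals are given unnormalized. In whole heart tissue, fewer cells of a type and less RNA per cell cannot be told apart. Of 6 heart muscle miRNAs 5 were detected on all 6 arrays, with miR-208b-3p undetected, while the markers of liver (miR-122-5p), pancreatic islet (miR-375-3p), neurons (miR-9-5p and miR-124-3p) and skeletal muscle (miR-206-3p) were detected on none. The labels call the tissue heart muscle, although their extraction text speaks of macrophages. The immune-cell markers miR-142a-3p, miR-142a-5p, miR-223-3p, miR-150-5p and miR-155-5p summed to a signal of 12.2 to 25.8 in C and 38.4 to 60.2 in D, against 3555 to 4403 in C and 7772 to 11917 in D for the heart muscle miRNAs.

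The mature sequences below belong to the miRNAs that changed most, to family members with the same seed that differed in their change, and to miRNAs that were detected in 1 group alone. They were taken from RefSeq (GRCm38.p6), which held 108 of the 128 tested miRNAs (84.4%) and 71 of the other 88. Capitals mark the seed, bases 2 to 8. Those of the miR-15 family are shown from the largest change to the smallest.
miR-15b-5p: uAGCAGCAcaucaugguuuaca
miR-322-5p: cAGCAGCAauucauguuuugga
miR-195a-5p: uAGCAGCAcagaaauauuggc
miR-16-5p: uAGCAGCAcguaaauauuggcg
miR-15a-5p: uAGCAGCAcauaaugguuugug
miR-497a-5p: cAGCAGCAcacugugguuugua
The let-7 family follows in the same order, with let-7e-5p and miR-98-5p, which were not detected on every C array, at the end.
let-7f-5p: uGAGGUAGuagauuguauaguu
let-7d-5p: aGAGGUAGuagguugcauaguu
let-7g-5p: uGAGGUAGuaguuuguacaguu
let-7a-5p: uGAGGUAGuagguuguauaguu
let-7c-5p: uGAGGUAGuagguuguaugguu
let-7b-5p: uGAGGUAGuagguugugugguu
let-7i-5p: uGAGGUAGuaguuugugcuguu
let-7e-5p: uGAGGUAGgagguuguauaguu
miR-98-5p: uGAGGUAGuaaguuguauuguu
In the following pairs and in the miR-30 family, members with 1 seed differed in their change.
miR-26b-5p: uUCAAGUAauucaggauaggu
miR-26a-5p: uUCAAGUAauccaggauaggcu
miR-92a-3p: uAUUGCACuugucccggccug
miR-25-3p: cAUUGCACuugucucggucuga
miR-125a-5p: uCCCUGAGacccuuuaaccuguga
miR-125b-5p: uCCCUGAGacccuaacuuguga
miR-27a-3p: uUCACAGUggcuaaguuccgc
miR-27b-3p: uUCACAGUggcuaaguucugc
miR-30c-5p: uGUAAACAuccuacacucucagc
miR-30e-5p: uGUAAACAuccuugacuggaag
miR-30a-5p: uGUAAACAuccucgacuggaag
The arms of the miR-22 hairpin have different seeds.
miR-22-5p: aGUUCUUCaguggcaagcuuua
miR-22-3p: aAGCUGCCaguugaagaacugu
The next 4 belong to miRNAs that were lower on every D array even before normalization.
miR-7005-5p: cCUGGGGAugggaggaccagca
miR-3620-5p: cUGUGGGCugggcugggaagca
miR-7047-5p: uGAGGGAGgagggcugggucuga
miR-7686-5p: cCUUCCACuggaccuggggcugggc
The brightest miRNA found on every D and no C array, and the one detected on every C and no D array, close the set.
miR-350-3p: uUCACAAAgcccauacacuuuc
miR-7221-3p: uGACUGUGggcuggggacugg

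Of the 128 miRNAs, 80 (62.5%) passed the threshold of 0.05 in limma's test with Benjamini-Hochberg adjustment, 39 (30.5%) higher and 41 (32%) lower in D, and 85 had an unadjusted p under 0.05. Every D array lay above every C array for 45 miRNAs (35.2%) and below for 44 (34.4%). A similar number of calls in each direction follows partly from the normalization, which centres the median change (0.03). Without normalization 80 were called higher and 7 lower in D, and after scaling to the 75th percentile 27 were higher and 42 lower.

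MiR-15b-5p, a member of a family that slows the cell cycle, showed the largest rise. Its unnormalized signal was 12.3, 5.41 and 7.02 on the C arrays and 52.2, 44.5 and 30.6 on the D arrays. The groups did not overlap, and the log2 change after normalization was 1.80 (standard error 0.24, adjusted p = 0.0013). MiR-322-5p of the same family, the mouse counterpart of human miR-424, read 17.2, 14.7 and 16.1 in C and 60, 61.5 and 39.4 in D, a log2 change of 1.04 (standard error 0.14, adjusted p = 0.0013). MiR-92a-3p, from the miR-17-92 cluster that promotes proliferation, read 7.65, 6.01 and 7.77 in C and 32.3, 26.3 and 21.3 in D. Its log2 change of 1.37 had one of the smallest errors of the large rises (0.10, adjusted p = 0.00025).

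MiR-1a-3p, the muscle miRNA that restrains growth and shapes excitability of cardiomyocytes, had signals of 873, 615 and 681 on the C arrays and 4440, 3965 and 2373 on the D arrays. All 3 D arrays were above all C arrays, with Diabetic-3 the lowest of the D arrays, and the log2 change was 1.31 (standard error 0.15, adjusted p = 0.0013). MiR-26b-5p, of a family that targets growth and BMP signalling, read 38.8, 31.5 and 37.5 in C and 199, 167 and 86.9 in D, a log2 change of 1.29 (standard error 0.20, adjusted p = 0.0018). Here too Diabetic-3 lay well below the other D arrays but above every C array. MiR-27a-3p, which acts on lipid metabolism and vessel growth, went from 86.1, 46.9 and 51.0 in C to 232, 209 and 161 in D, with a log2 change of 1.00 (standard error 0.20, adjusted p = 0.0041).

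The other rises among the 12 largest were miR-22-5p (log2 change 1.47), miR-125a-5p (1.38), miR-139-5p (1.11), miR-223-3p (1.04), let-7f-5p (0.99) and let-7d-5p (0.92), with adjusted p-values between 0.00032 and 0.011 in limma. MiR-22-5p read 5.82, 4.46 and 4.55 in C and 20.9, 20.0 and 13.5 in D. MiR-125a-5p, a lin-4 homologue, read 5.33, 4.48 and 5.39 in C and 19.3, 15.9 and 16.6 in D. For both the D signals were higher on every array, as they were for miR-139-5p (3.26 to 6.62 in C, 8.96 to 14.2 in D) and for the myeloid miR-223-3p (4.54 to 11.5 in C, 15.5 to 20.2 in D). These 4 dim miRNAs did not keep their direction in the normalized values that the authors deposited, where the log2 change was -0.27 for miR-22-5p, -0.02 for miR-125a-5p, -0.73 for miR-139-5p and -0.56 for miR-223-3p. The other 8 of the 12 stayed higher in D in those values and 6 of them passed the threshold there. MiR-15b-5p (1.49, adjusted p = 0.109) and miR-92a-3p (0.99, adjusted p = 0.082) did not pass in those values.

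**Figure D1:**
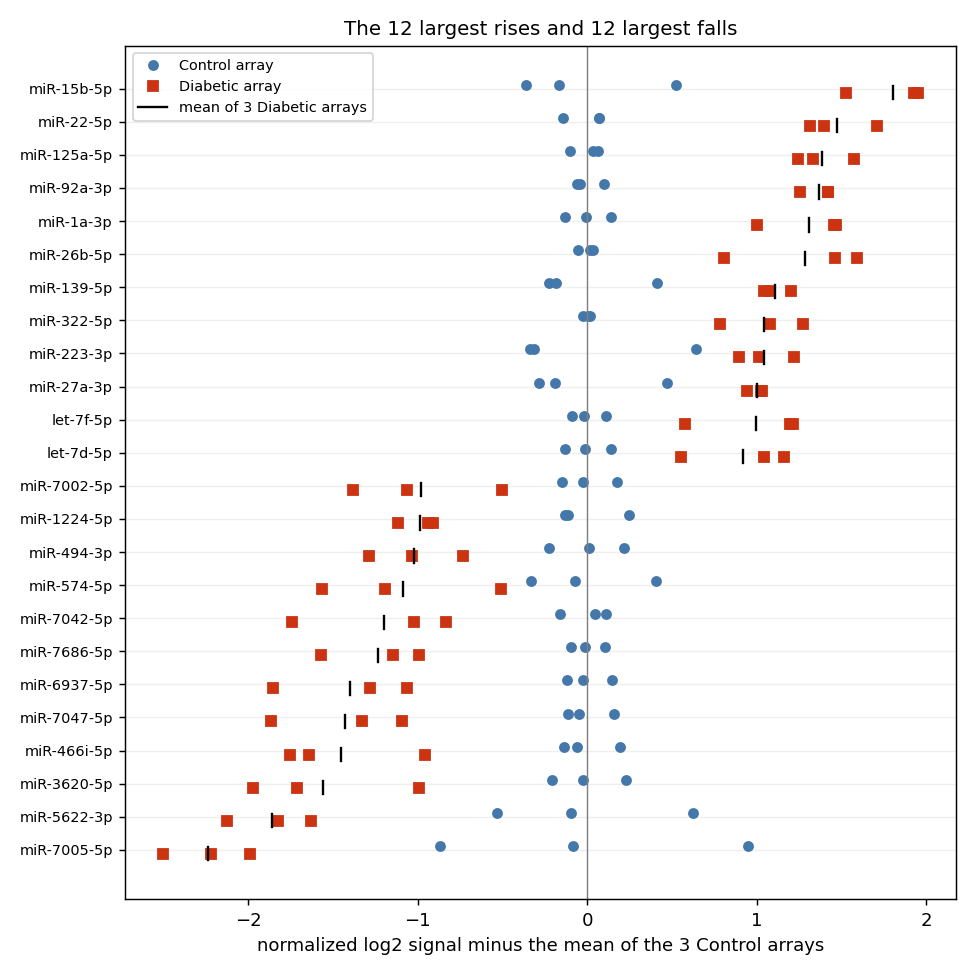
Normalized log2 signal of each array minus the mean of the 3 C arrays (horizontal axis) for the 12 miRNAs with the largest rise and the 12 with the largest fall (vertical axis). Circles are C arrays, squares are D arrays and the black bar is the mean of the 3 D arrays. They were chosen among called miRNAs whose groups do not overlap, and run from miR-15b-5p (log2 change 1.80) to miR-7005-5p (-2.23).

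The largest falls were in miRNAs about which little is known. MiR-7005-5p read 10.04, 13.1 and 31.9 on the C arrays and 4.52, 4.20 and 4.34 on the D arrays. The D arrays lay close together below all C arrays, of which Control-3 stood high, and the log2 change after normalization was -2.23 (standard error 0.41, adjusted p = 0.0034), or -1.54 without Control-3 (adjusted p = 0.0098). MiR-5622-3p followed with 23.5, 26.2 and 48.6 in C and 15.7, 15.4 and 10.1 in D (log2 change -1.86, standard error 0.28, adjusted p = 0.0018). MiR-3620-5p had steadier C arrays, at 14.2, 14.8 and 14.6, and D arrays at 7.22, 4.68 and 8.21, with a log2 change of -1.56 (standard error 0.25, adjusted p = 0.0020). MiR-7047-5p fell from 163, 170 and 172 in C to 133, 82.4 and 114 in D (log2 change -1.43, standard error 0.20, adjusted p = 0.0014).

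Although the D arrays were brighter as a whole, 7 of the 128 miRNAs were lower on every D array than on every C array before any normalization. These were miR-7005-5p, miR-5622-3p, miR-3620-5p, miR-7047-5p, miR-6937-5p (51.9 to 53.6 in C, 24.2 to 39.6 in D), miR-7686-5p (35.3 to 36.6 in C, 19.4 to 29.0 in D) and miR-208a-3p, the miRNA in an intron of the cardiac myosin gene Myh6. MiR-208a-3p read 42.9, 46.0 and 44.4 in C and 40.2, 41.6 and 41.3 in D. That gap was narrow before normalization (log2 change -0.12) and wider after it (-0.82, standard error 0.14, adjusted p = 0.0025).

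The falls of miR-466i-5p (log2 change -1.45), miR-7042-5p (-1.20), miR-574-5p (-1.09), miR-494-3p (-1.02), miR-1224-5p (-0.99) and miR-7002-5p (-0.98) passed the limma threshold after normalization, while their unnormalized signals overlapped between the groups. MiR-494-3p, from the imprinted Dlk1-Dio3 region of chromosome 12, read 242, 175 and 279 in C and 288, 208 and 139 in D. It was the 1 of 22 miRNAs listed for that region and on the array that was detected on all 6, and 21 were detected on none. The list does not hold every miRNA of the region. Outside it, miR-3072-5p of the same genomic cluster was detected on 1 C and 1 D array. MiR-666-5p, encoded nearby on chromosome 12, was detected on 1 D array. MiR-466i-5p was likewise the 1 tested member of the 61 miRNAs named miR-297, miR-466, miR-467 or miR-669, and read 30.6 to 41.1 in C and 15.0 to 32.3 in D. The call of miR-574-5p was lost without Control-1 (adjusted p = 0.056) and without Control-3 (log2 change -0.72, adjusted p = 0.082). In the deposited normalized values all 12 falls kept their direction, and 7 passed. MiR-7005-5p, miR-5622-3p, miR-3620-5p, miR-7042-5p and miR-574-5p did not (adjusted p 0.0504 to 0.0983).

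The let-7 family, whose members promote differentiation and repress growth genes, held 7 tested miRNAs, of which 4 rose and 0 fell, against 30.5% and 32% of all tested miRNAs, with a median log2 change of 0.61 against 0.03 over all 128. Let-7f-5p read 154, 135 and 175 in C and 805, 707 and 361 in D (log2 change 0.99, standard error 0.18, adjusted p = 0.0034). Let-7d-5p (0.92), let-7g-5p (0.75) and let-7a-5p (0.61) also passed, whereas let-7c-5p (0.17), let-7b-5p (-0.07) and let-7i-5p (-0.13) did not, with adjusted p-values of 0.324, 0.623 and 0.268. Let-7a-5p differs from let-7f-5p and from let-7c-5p by 1 base each, and let-7b-5p from let-7c-5p by 1. How far the probes keep such neighbours apart was not tested. Outside the 128, let-7e-5p was detected on 2 C arrays (4.86 and 8.93) and on all D arrays (20.7 to 37.7), and miR-98-5p on no C array and all D arrays (5.35 to 17.1).

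In the family of miR-15, miR-16 and miR-195 5 of 6 tested members rose and 0 fell, against 30.5% and 32% of all 128, with a median log2 change of 0.57. Beside miR-15b-5p and miR-322-5p these were miR-195a-5p (0.64), miR-16-5p (0.51) and miR-15a-5p (0.43, no longer past the threshold without Control-3, adjusted p = 0.0505). In the deposited normalized values all 5 stayed higher in D, but only miR-322-5p passed (adjusted p = 0.048). MiR-16-5p (adjusted p = 0.062), miR-15a-5p (0.085), miR-195a-5p (0.089) and miR-15b-5p (0.109) did not pass there. MiR-497a-5p, cut from the same transcript as miR-195a-5p, had a log2 change of -0.05 (adjusted p = 0.648). Of 5 tested members of the miR-17-92 cluster and its paralogs 3 rose and 0 fell, again against 30.5% and 32% of all 128. MiR-92a-3p, miR-93-5p (0.73) and miR-19b-3p (0.62) rose, while miR-25-3p (0.06) and miR-106b-5p (0.04) did not pass. In a fit to the miRNAs numbered below 1000 alone, chosen after seeing the data, both of these were called lower. There the log2 change was -0.32 for miR-25-3p (adjusted p = 0.045) and -0.31 for miR-106b-5p (adjusted p = 0.012). MiR-93-5p, miR-25-3p and miR-106b-5p are cut from 1 transcript in an intron of the Mcm7 gene. In the deposited values miR-93-5p was lower in D by 0.78 and did not pass (adjusted p = 0.302). MiR-92a-3p and miR-19b-3p stayed higher there but did not pass (adjusted p = 0.082 and 0.052). MiR-20a-5p, which shares its seed with miR-93-5p, was detected on 1 C array (4.53) and on all D arrays (15.2 to 30.6).

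Of the miR-23/27/24 clusters, which act in endothelial cells and in metabolism, 3 of 5 tested members rose and 0 fell, against 30.5% and 32% of all 128. MiR-27a-3p (1.00), miR-23b-3p (0.75) and miR-23a-3p (0.56) passed, while miR-24-3p (0.27, adjusted p = 0.098) and miR-27b-3p (0.22, adjusted p = 0.102) did not. MiR-24-3p passed without Control-1 (0.38, adjusted p = 0.021). MiR-27a-3p and miR-27b-3p differ by 1 base. MiR-103-3p (0.36) and miR-107-3p (0.73), which act on insulin signalling through caveolin, both rose, the former no longer past the threshold with any 1 of Control-1, Control-2, Control-3 or Diabetic-1 left out (adjusted p 0.063 to 0.082).

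Members of the family of miR-10, miR-99, miR-100 and miR-125 rose in 2 of 4 cases, against 30.5% of all 128, miR-125a-5p (1.38) and miR-125b-5p (0.35, adjusted p = 0.0830 without Control-2), while miR-100-5p (0.21) and miR-99a-5p (0.08) did not pass. In the related families of miR-130, miR-301, miR-148 and miR-152 miR-148a-3p (0.77) was the 1 of 3 that rose, near the 30.5% of all 128. MiR-130a-3p (0.29) passed without Control-1 (0.40, adjusted p = 0.019) and after quantile normalization (0.45, adjusted p = 0.032). Both tested members of the miR-101 family rose, miR-101c by 0.42 and miR-101a-3p by 0.34 on the log2 scale. Neither call was firm, since that of miR-101a-3p was lost with any array but Diabetic-1 left out (adjusted p 0.051 to 0.147) and that of miR-101c without Control-2 or Control-3 (adjusted p 0.074 and 0.075). None of the 3 members of the miR-29 family, which represses collagen genes, passed the threshold. Their log2 changes were 0.12 for miR-29b-3p, 0.09 for miR-29a-3p and -0.17 for miR-29c-3p, with adjusted p-values of 0.442, 0.448 and 0.122. MiR-181a-5p, the 1 tested member of its family, had a log2 change of 0.02 (adjusted p = 0.922).

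**Figure D2:**
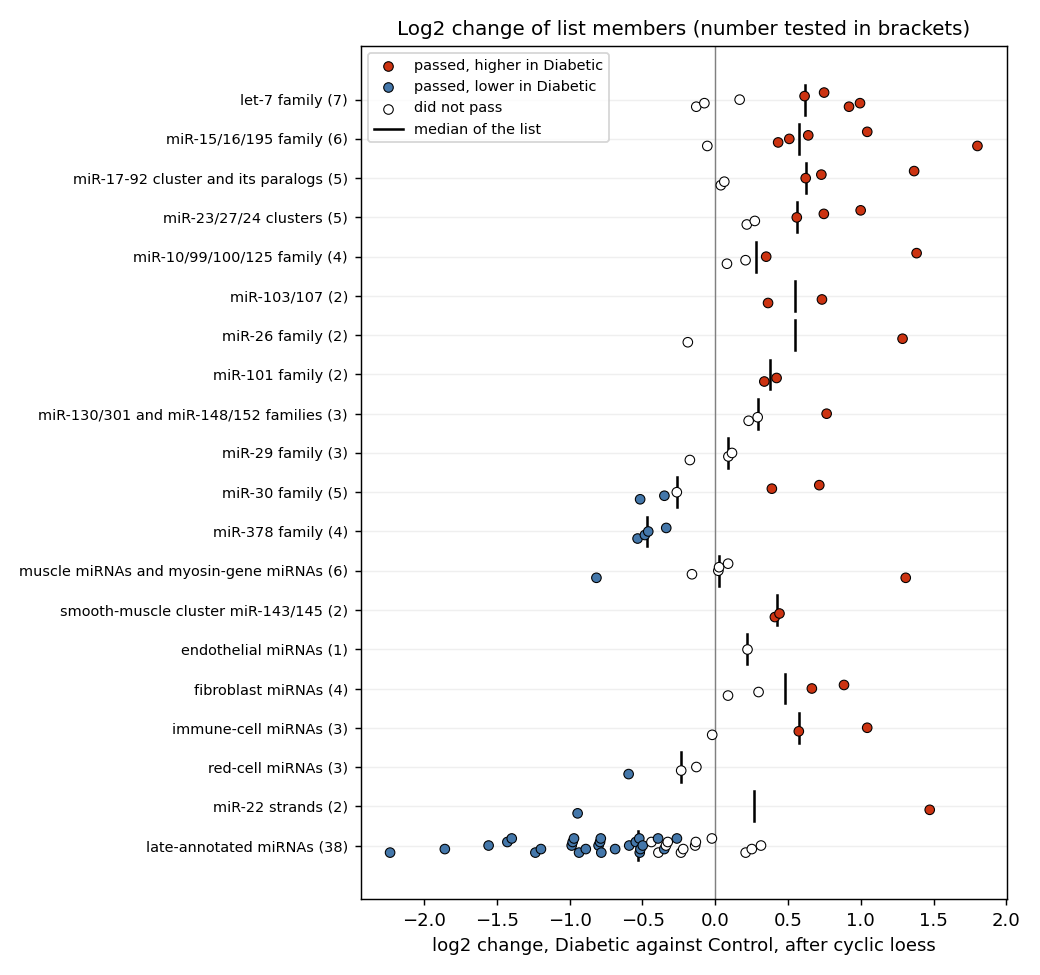
Log2 change in D against C after cyclic loess (horizontal axis) of each tested member of the lists (vertical axis, number tested in brackets). Filled points passed the adjusted threshold (red higher, blue lower in D), open points did not, and the black bar is the median of the list. The let-7, miR-15 and miR-17-92 members lie mostly to the right, all 4 miR-378 members and most miRNAs numbered 1000 or above to the left, and the miR-30 family on both sides.

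The miR-30 family, abundant in cardiomyocytes and a repressor of autophagy and fibrosis genes, was the 1 of 13 seed families with at least 2 tested members and a sequence that held calls in both directions. MiR-30b-5p (81.0, 62.7 and 72.1 in C, 277, 208 and 138 in D) rose by 0.72 on the log2 scale (standard error 0.15, adjusted p = 0.0061) and miR-30c-5p by 0.39 (adjusted p = 0.016). The latter call was lost without Control-2 or Control-3 (adjusted p 0.065 and 0.082). MiR-30a-5p (284, 255 and 284 in C, 403, 360 and 360 in D) fell relative to the average miRNA by 0.52 (standard error 0.13, adjusted p = 0.0098) and miR-30d-5p by 0.35 (adjusted p = 0.025), while miR-30e-5p changed by -0.26 (adjusted p = 0.054, or 0.015 without Diabetic-3). The unnormalized signals of all 5 members were higher on every D array, by 0.42 to 1.48 on the log2 scale, so that the falls are falls relative to the other miRNAs.

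All 4 tested members of the miR-378 family, of which miR-378a lies in the gene of the metabolic coactivator PGC-1 beta, fell relative to the average miRNA, by 0.53 for miR-378a-3p, 0.48 for miR-378d, 0.46 for miR-378b and 0.34 for miR-378c, where 32% of all miRNAs fell. Before normalization the log2 changes of the 4 were positive, from 0.31 to 0.48, with no overlap between the groups. The call of miR-378c was lost in 5 of 6 fits that left out 1 array (adjusted p 0.064 to 0.138, all but the fit without Diabetic-3), and that of miR-378b without Control-2 (adjusted p = 0.054). Their sequences are near alike, so signals of 1 member may reach the probes of another, which was not tested. MiR-378a-5p, from the other arm of the miR-378a hairpin, rose by 0.57 on the log2 scale (standard error 0.09, adjusted p = 0.0020), and unnormalized from 16.2 to 19.5 in C to 37.5 to 50.8 in D.

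Among 6 tested muscle and myosin-gene miRNAs, 1 rose (miR-1a-3p), 1 fell (miR-208a-3p) and 4 did not pass, where 30.5% of all 128 rose and 32% fell. MiR-133a-3p, which is cut from the same transcripts as miR-1a and restrains growth, read 1377, 1131 and 1406 in C and 2973, 2621 and 2137 in D, a log2 change of 0.02 after normalization (standard error 0.09, adjusted p = 0.841). After quantile normalization its log2 change was -0.50, past the threshold (adjusted p = 0.0013). MiR-133b-3p (0.03), miR-499-5p of the Myh7b gene (0.09) and miR-133a-5p (-0.16) did not pass either. MiR-22-3p, a miRNA of heart muscle linked to hypertrophic growth, read 709, 707 and 689 in C and 834, 799 and 685 in D. These unnormalized signals overlapped, and relative to the average miRNA it fell by 0.95 (standard error 0.13, adjusted p = 0.0013).

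The miRNAs of the other cell types of the heart did not move as 1 group. Of all 128 tested miRNAs 30.5% rose and 32% fell. The smooth-muscle pair miR-143-3p and miR-145a-5p rose by 0.44 and 0.41 on the log2 scale, the latter no longer past the threshold in 5 of 6 fits that left out 1 array (adjusted p 0.054 to 0.147, all but that without Control-1). Their summed unnormalized signal was 36.8 to 51.1 in C and 82.0 to 105 in D. Of 4 tested fibroblast miRNAs, miR-199a-3p (20.8, 19.7 and 21.1 in C, 69.8, 70.0 and 45.9 in D, log2 change 0.88, standard error 0.13, adjusted p = 0.0016) and miR-199a-5p (0.66) rose. MiR-199b-5p (0.30, adjusted p = 0.064) and the fibrosis-linked miR-21a-5p (0.09, adjusted p = 0.449) did not pass, although miR-199b-5p did without Diabetic-1 (adjusted p = 0.040). The endothelial miR-126a-3p read 459, 344 and 413 in C and 1186, 1045 and 802 in D, with a log2 change of 0.22 (adjusted p = 0.070, or 0.039 without Control-1). After quantile normalization it was 0.46 and passed (adjusted p = 0.0089).

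Of the immune-cell miRNAs, miR-223-3p (1.04) and miR-142a-3p (0.57, made by blood cells) rose, and miR-146a-5p had a log2 change of -0.02, which was -0.66 after scaling to the 75th percentile (adjusted p = 0.034) and -2.65 in the deposited values (adjusted p = 0.062). The call of miR-142a-3p was lost without Control-3 or Diabetic-2 (adjusted p 0.054 and 0.062), and in the deposited values its log2 change was -0.24. Of 3 tested red-cell miRNAs 0 rose after normalization, against 30.5% of all 128. Their summed unnormalized signal was 499 to 508 in C and 760 to 965 in D. From the other arm of the miR-486 hairpins, miR-486a-3p (4.55 to 11.1) and miR-486b-3p (3.90 to 6.49) were detected on all D and no C arrays. MiR-144-3p fell by 0.60 relative to the average miRNA (adjusted p = 0.015, but 0.0555 after quantile normalization and 0.063 in the deposited values), with overlapping unnormalized signals of 50.5 to 65.4 in C and 55.2 to 68.5 in D, while miR-451a (-0.13) and miR-486a-5p (-0.23) did not pass in the fit to all 6 arrays. The part of blood or other cells in these changes was not tested. All 10 listed miRNAs of liver, islet, neurons and epithelium were undetected in both groups.

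The scaling of the arrays decided some of these calls. Quantile normalization ended those of miR-101a-3p, miR-101c, miR-144-3p, miR-378c and miR-3963, and gave calls to miR-126a-3p, miR-130a-3p, miR-152-3p, miR-199b-5p and miR-30e-5p. It also called miR-133a-3p (log2 change -0.50) and miR-5100 (-0.28) lower, both with a change of sign. Scaling to the 75th percentile ended 16 calls of named miRNAs (adjusted p 0.058 to 0.552), namely miR-139-5p, miR-223-3p, miR-15a-5p, miR-93-5p, miR-30a-5p, miR-378b, miR-378c, miR-378d, miR-103-3p, miR-101a-3p, miR-101c, miR-143-3p, miR-145a-5p, miR-199a-5p, miR-142a-3p and miR-3963. None of these 16 changed sign. The same scaling gave calls to miR-126a-3p, miR-146a-5p and miR-5100. The deposited normalized values ended 24 calls of named miRNAs without a change of sign (adjusted p 0.0504 to 0.746). Among rises these were let-7a-5p, miR-15a-5p, miR-15b-5p, miR-16-5p, miR-195a-5p, miR-19b-3p, miR-92a-3p, miR-30c-5p, miR-101a-3p, miR-101c, miR-103-3p, miR-107-3p, miR-125b-5p, miR-143-3p, miR-145a-5p, miR-148a-3p and miR-199a-5p. Among falls they were miR-7005-5p, miR-5622-3p, miR-3620-5p, miR-7042-5p, miR-574-5p, miR-144-3p and miR-378c.

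Genomic clusters, here hairpins within 10000 bases of each other on 1 strand, held at least 2 tested miRNAs in 15 cases, and none of the 15 held calls in both directions. They were built from the 108 tested miRNAs with a RefSeq entry, so that the other 20, among them miR-30b-5p and miR-30d-5p with calls in opposite directions, lie outside this count. At chr13:48536012-48538272 (minus strand) the hairpins of let-7a-1, let-7f-1 and let-7d lie together, and all 3 miRNAs rose (0.61 to 0.99). At chr15:85706603-85707403 let-7b-5p and let-7c-5p, from neighbouring hairpins, did not pass. MiR-15b and miR-16-2 share chr3:69009772-69009996, and miR-15b-5p rose by 1.80 and miR-16-5p by 0.51, although miR-16-5p is also made from a further locus. At chr14:115043671-115044506, the miR-17-92 cluster, miR-92a-3p and miR-19b-3p rose, and miR-20a-5p and miR-19a-3p went from at most 1 C array to all D arrays. MiR-92a-3p and miR-19b-3p are also made from the cluster at chrX:52741693-52742567 (minus strand), so their rise cannot be assigned to either locus. A miRNA made from several loci was counted at each of them. The red-cell cluster of miR-144 and miR-451a at chr11:78073005-78073241 held 1 fall and 1 miRNA that did not pass. All coordinates are of GRCm38.p6, on the plus strand unless stated.

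Both arms were tested for 6 miRNA names, and for 2 of them the arms were called in opposite directions. MiR-22-5p was higher by 1.47 and miR-22-3p lower by 0.95, a difference of 2.42, although in the deposited values both were lower in D. MiR-378a-5p was higher by 0.57 and miR-378a-3p lower by 0.53, a difference of 1.11. The 3p arm of miR-30e lay above its 5p arm by 0.62 and that of miR-30a by 0.60, while the arms of miR-199a both rose and differed by 0.22. Neither arm of miR-133a passed.

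A ratio of 2 signals on 1 array does not depend on a common scaling of that array. It was formed for 14 pairs of related miRNAs, chosen with their values known, and is given without a test. For 13 pairs the D and C arrays did not overlap. That count follows partly from how the pairs were chosen, and the share among other pairs of miRNAs was not computed. The ratio of miR-22-5p over miR-22-3p was higher in D by 1.73 on the log2 scale, that of miR-1a-3p over miR-133a-3p by 1.303 and that of miR-26b-5p over miR-26a-5p by 1.21. MiR-92a-3p over miR-25-3p (1.19), miR-15b-5p over miR-16-5p (1.18), let-7f-5p over let-7b-5p (1.12) and miR-30b-5p over miR-30a-5p (1.03) showed similar differences. The ratio did not always match the difference between the normalized log2 changes. It was 0.52 against 1.03 for miR-125a-5p over miR-125b-5p and 1.73 against 2.42 for the miR-22 arms. For miR-107-3p over miR-103-3p both were 0.37. MiR-208a-3p over miR-499-5p, a pair of myosin-gene miRNAs, was lower in D by 0.96, at -0.76, -0.93 and -1.19 on the C arrays and -2.17, -1.96 and -1.64 on the D arrays. MiR-23a-3p over miR-23b-3p was the pair whose groups overlapped, with a difference of -0.04.

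**Figure D3:**
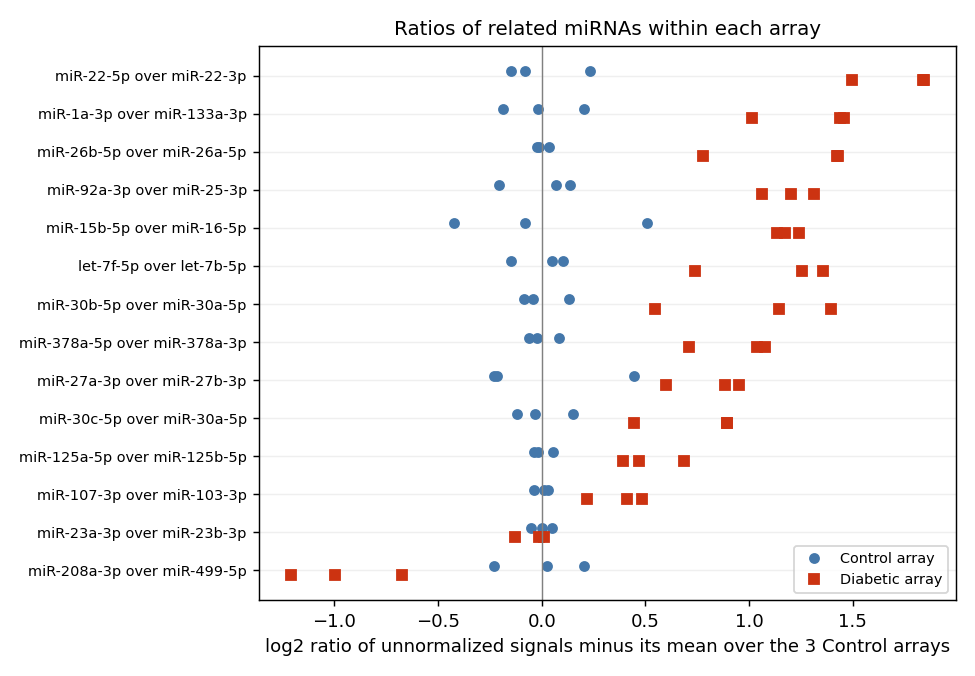
Log2 ratio of the unnormalized signals of 2 related miRNAs on each array, minus its mean over the 3 C arrays (horizontal axis), for 14 pairs chosen with their values known (vertical axis). Circles are C arrays and squares D arrays. The groups are apart for all pairs but miR-23a-3p over miR-23b-3p, and the pair of miR-208a-3p and miR-499-5p is the one that is lower in D.

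MiRNAs with a number of 1000 or above, entered late into the miRNA registry and often predicted from short introns, made up 38 of the 128. Of these 0 rose and 26 (68.4%) fell, with a median log2 change of -0.53, while of the other 90 miRNAs 39 (43.3%) rose and 15 fell, with a median of 0.22. Before normalization the medians were -0.07 and 0.98. With no normalization 5 of the 38 were called higher and 6 lower. The brightest of the 38 had positive unnormalized changes, 0.56 for miR-6366, 0.59 for miR-3963, 1.20 for miR-5100 and 0.95 for miR-3968. Those of miR-6366 and miR-3963 lay below the unnormalized median of 0.77 over all 128. After cyclic loess miR-5100 had a log2 change of 0.21, which turned to -0.28 after quantile normalization and then passed as lower (adjusted p = 0.0030) but was 0.36 and higher after scaling to the 75th percentile (adjusted p = 0.049), and miR-3963 one of -0.26 (adjusted p = 0.038, lost in 5 of 6 fits that left out 1 array, all but that without Control-1, adjusted p 0.053 to 0.101), and neither miR-6366 nor miR-3968 passed.

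**Figure D4:**
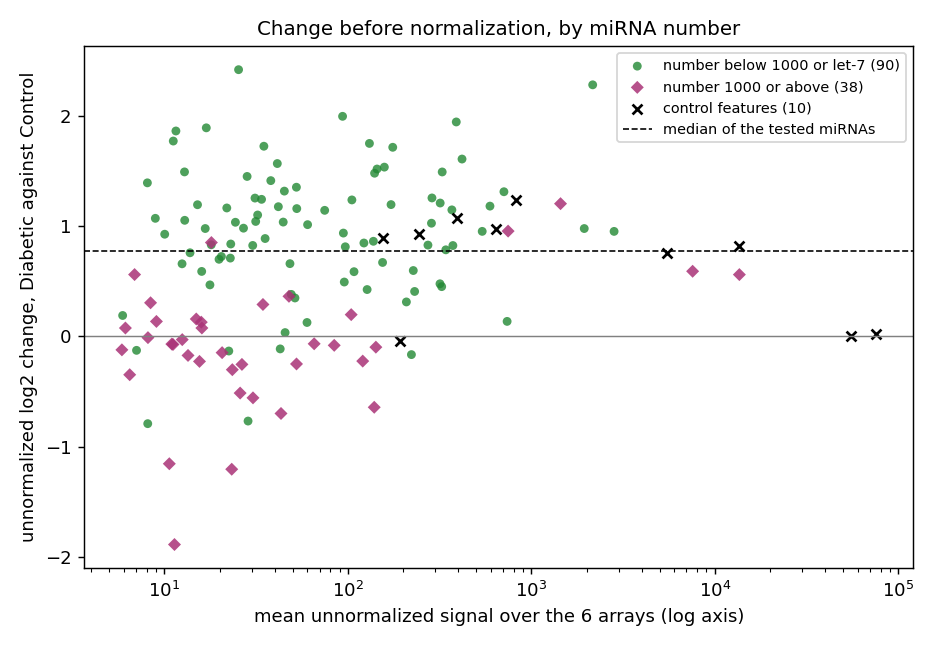
Unnormalized log2 change in D against C (vertical axis) against the mean unnormalized signal over the 6 arrays (horizontal log axis) for the 90 miRNAs numbered below 1000 or named let-7 (circles), the 38 numbered 1000 or above (diamonds) and 10 array control features (crosses). The dashed line is the median of the 128 miRNAs, 0.77. Most diamonds lie near or below 0 and most circles near or above the dashed line.

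The called groups also differed in base composition. Among the 108 miRNAs with a sequence, the median GC content was 41.9% in those that rose, 50.0% in those that did not pass and 61.9% in those that fell. Of 30 miRNAs with over 60% GC, 27 were numbered 1000 or above, 1 rose and 19 fell, whereas of 15 miRNAs with up to 40% GC 8 rose and 2 fell. Across the 108 miRNAs, which share arrays and are not independent, the log2 change and GC content had Pearson's r = -0.474 and Spearman's rho = -0.515. Within the 74 numbered below 1000 r was -0.117 and within the 34 numbered 1000 or above it was 0.082. Inside seed families the member that rose most had the lower GC content in 7 of 13 families, the higher in 3 and the same in 3. MiR-26b-5p (33.3%) and miR-26a-5p (40.9%) are of the first kind, and miR-92a-3p (57.1%) and miR-25-3p (50.0%) of the second. Whether base composition has a part in the changes was not tested.

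Among the 88 miRNAs detected on some of the 6 arrays, 60 were detected on more D than C arrays, 19 on fewer and 9 on equally many. On all D arrays and no C array 19 were detected (1.01% of the 1881 on the array), and 1 (0.0532%) on all C arrays and no D array. The 19 were dim, at 3.58 to 17.1, while the lowest signal called detected was 1.73 to 2.24 on the C arrays, and 18 of the 19 stayed above 2.24 on every D array after division by the median ratio of 1.70. After that division 0 of the 19 stayed above the lowest signal at which the same miRNA was called detected on any of the 12 arrays. That lowest signal could be a D signal itself, as for miR-98-5p (5.35), and then the division fixed the outcome. For the others it came from an array of a pargyline group, as the 19 were detected on no C array. Without Diabetic-3, which had the fewest detections of the D arrays, 31 miRNAs were detected on all remaining D and no C arrays.

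MiR-350-3p was the brightest of the 19, at 15.0, 14.8 and 10.5 on the D arrays, and miR-98-5p of the let-7 family read 15.97, 17.1 and 5.35. They were followed by miR-140-5p, known from cartilage, at 9.86 to 12.6, by miR-20b-5p, the X-linked paralog of miR-20a, at 7.74 to 14.6, and by miR-126a-5p, the minor arm of the endothelial miR-126 hairpin, at 6.33 to 14.7. MiR-10a-5p, from the Hoxb gene cluster, read 5.83 to 12.9, and miR-128-3p 4.27 to 12.97. MiR-193b-3p (4.47 to 10.5) and miR-193a-3p (4.35 to 5.00), paralogs known from brown fat and growth control, both belonged to the 19, and miR-365-3p, which is encoded beside miR-193b, was detected on 2 C arrays (3.55 and 10.9) and all D arrays (16.7 to 22.2). The endothelial and vascular miR-221-3p went from 1 C array (3.67) to all D arrays (14.3 to 18.5).

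By family, the 19 included both miR-192-5p and miR-194-5p, 2 members of the miR-10 family, miR-20b-5p and miR-19a-3p of the miR-17-92 paralogs, and miR-301a-3p. The other members of the 19 were miR-1839-3p, miR-204-5p, miR-29c-5p, miR-486a-3p and miR-486b-3p. Set against the lowest detected signals of the C arrays after cyclic loess, the fold was 3.01 for miR-350-3p and 2.51 for miR-98-5p. It holds only under that normalization and is not a strict bound, as an undetected miRNA need not lie below the lowest detected signal. It exceeded 1 for 11 of the 19 after cyclic loess, for 16 after quantile normalization and for 19 after scaling to the 75th percentile. After cyclic loess it was 1.48 for miR-193b-3p and did not exceed 1 for miR-193a-3p. The 1 miRNA detected on all C arrays and no D array was miR-7221-3p, at 4.23, 4.12 and 4.10. A further 7 were on all C arrays and on 1 or 2 D arrays, among them miR-671-5p (7.80 to 9.91 in C, 1.86 and 3.69 on 2 D arrays), miR-6378 and miR-6944-5p.

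**Figure D5:**
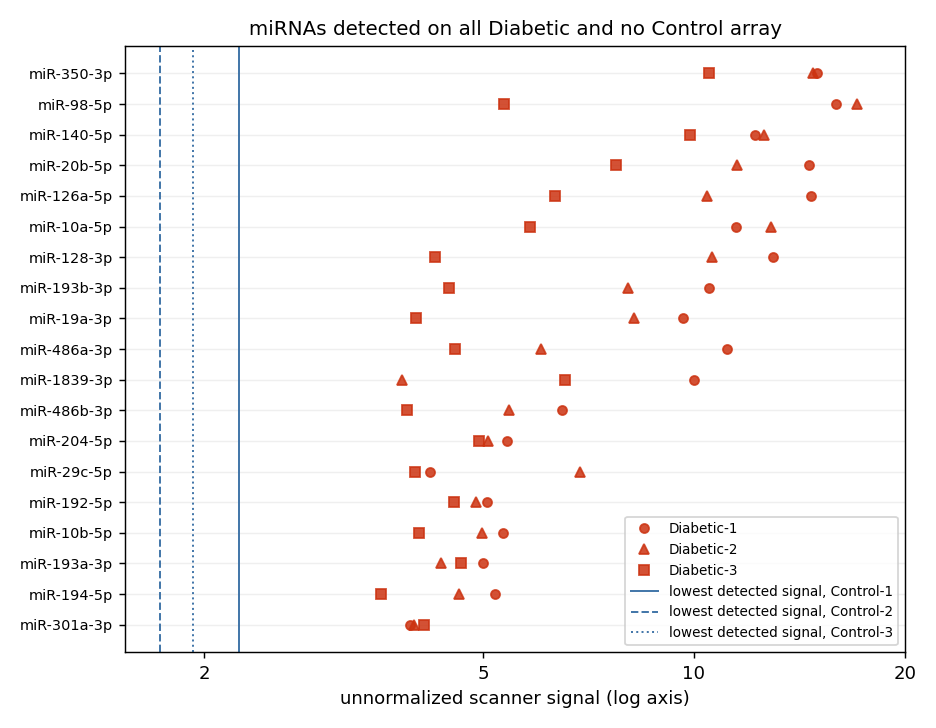
Unnormalized signals of the 3 D arrays (symbols, horizontal log axis) for the 19 miRNAs detected on every D and no C array (vertical axis). Vertical lines mark the lowest signal called detected on each C array, from 1.73 to 2.24, and every D signal lies to their right.

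Of the 7 miRNAs that the study also followed by qRT-PCR, miR-27a-3p and let-7f-5p rose, miR-133a-3p (0.02), miR-185-5p (0.15, adjusted p = 0.302) and miR-152-3p (0.23, adjusted p = 0.121) did not pass, and both miR-193b-3p and miR-193a-3p had no detected signal in C. MiR-185-5p read 21.9, 20.1 and 23.0 in C and 47.5, 38.8 and 30.3 in D, and miR-152-3p 13.3, 11.5 and 13.9 in C and 26.2, 24.9 and 18.2 in D. Both were higher on every D array before normalization and overlapped after it. Without Diabetic-3 both passed, with log2 changes of 0.27 (adjusted p = 0.043) and 0.31 (adjusted p = 0.040).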

How the data were processed

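Heart RNA of 3 C and 3 D mice was hybridized to Agilent mouse miRNA arrays with miRBase content. The amount of labelled RNA differs between the labels and the methods. Per the file headers, the authors deposited Agilent Feature Extraction gene-level intensity values, summed over the probes of a miRNA, with a detection flag. These values were not normalized between arrays and hold 0.1 wherever a miRNA was undetected. A second deposited table holds intensity values after the authors' detection filter and cyclic loess.

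Intensities of the 128 miRNAs detected on all 6 arrays were log2 transformed without an offset, normalized by cyclic loess (span 0.7, 3 iterations) and fitted with lmFit and eBayes (limma 3.58.1, R 4.3.3), with Benjamini-Hochberg adjustment over the 128 and a threshold of 0.05. The fit was tested on simulated data, where the share of false calls was above the nominal threshold when miRNAs had been changed, so calls near the threshold are to be read with care. The p-values rest on 3 mice per group, and the number of arrays limits the precision. An exact permutation test of 3 against 3 arrays cannot reach the threshold and was not used. Named miRNAs were the 12 largest rises and 12 largest falls among calls whose groups do not overlap, the 7 of the qRT-PCR, up to 4 further members of each list by highest mean signal and the 10 brightest with detection in 1 group alone. Other miRNAs named were chosen after their values were seen. The members and lists were chosen with earlier results of these data known, so the lists carry no test of their own. The list of the X-chromosome cluster around miR-532 had 0 tested members, 2 detected on some arrays and 7 undetected.

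Alternatives were quantile normalization, the 75th percentile of detected miRNAs, none, other detection filters, 16 added before log2, the deposited normalized values, all 12 arrays, an intensity trend, a replicate block, a control feature covariate, the methods' t-test, Holm adjustment, and a fit without each of the arrays. Normalizing only the 90 miRNAs numbered below 1000 was chosen after seeing the data. No 2 arrays held identical signals.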

Additional observations from a re-analysis of the deposited data

Results flagged for a closer look

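The scanner files also hold control features of the array, which entered 1 alternative fit as a covariate and no other comparison, and 7 of the 10 detected on all 6 arrays were brighter on every D array than on every C array. Their unnormalized log2 differences were 1.08 for dmr_285, 0.89 for dmr_31a, 0.75 for hur_1, 0.82 for hur_2, 0.97 for hur_4, 1.24 for hur_6 and 0.93 for mr_1. The other 3, the very bright dmr_3 (0.023) and dmr_6 (0.0032) and a corner mark of the array (-0.041), overlapped between the groups. The 7 differences lie near the median log2 difference of the 128 miRNAs before normalization (0.77). The part of array row, labelling or hybridization in this shift was not tested.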

How the results depend on the processing

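The 80 calls (39 higher, 41 lower in D) became 4 with no filter on 1881 miRNAs (4 higher, 0 lower), 32 with the deposited normalized values (11, 21), 24 with Holm adjustment (13, 11), 4 by the methods' t-test with Bonferroni adjustment (4, 0) and 51 of 90 with the miRNAs numbered below 1000 alone (26, 25). With no normalization 80 were higher and 7 lower. With the control feature signal as a covariate limma called 0, with 12 at an unadjusted p under 0.05, and after Benjamini-Hochberg adjustment the methods' t-test called 74. Leaving out 1 array gave 61 to 86 calls, 30 to 42 higher and 30 to 46 lower. The 19 miRNAs detected in D alone were 32 when 2 D arrays sufficed and 19 to 31 with 1 array left out (31 without Diabetic-3), and the 1 detected in C alone was 1 to 4 (4 without Diabetic-1). The replicate numbers did not pair the arrays (correlations of same-numbered deviations between -0.15 and -0.05), and with the replicate block 71 miRNAs were called, all among the 80. Scaling to the 75th percentile of all miRNAs was not run, since it is the undetected value on every array, and the 12-array fit with undetected values at the floor holds the same 128 miRNAs as the other 12-array fit. List medians of log2 change after cyclic loess were muscle 0.024, let-7 0.61, miR-15 0.57, miR-17-92 0.62, miR-23/27/24 0.56, miR-29 0.090, miR-30 -0.26, miR-378 -0.47, miR-10 0.28, miR-130 and miR-148 0.29, fibroblast 0.48, red-cell -0.23, immune-cell 0.57 and miRNAs numbered 1000 or above -0.53. After quantile normalization those that moved by more than the spread between arrays were -0.20 (muscle) and 0.45 (miR-130 and miR-148). After scaling to the 75th percentile those that moved by more than the spread between arrays were 0.054 (muscle), 0.23 (miR-17-92), 0.18 (miR-29), 0.24 (fibroblast) and -0.92 (miRNAs numbered 1000 or above). Without normalization those that moved by more than the spread between arrays were 0.90 (muscle), 1.52 (let-7), 1.29 (miR-15), 1.07 (miR-17-92), 1.49 (miR-23/27/24), 1.02 (miR-29), 0.60 (miR-30), 0.39 (miR-378), 1.07 (miR-10), 1.01 (miR-130 and miR-148), 1.09 (fibroblast), 0.49 (red-cell), 1.05 (immune-cell) and -0.073 (miRNAs numbered 1000 or above). In the deposited values those that moved by more than the spread between arrays were 0.063 (muscle), 0.38 (miR-17-92), -0.015 (miR-29), -0.37 (miR-30), 0.16 (miR-10), 0.32 (fibroblast), -0.56 (immune-cell) and -0.88 (miRNAs numbered 1000 or above). The log2 changes of named miRNAs that changed sign follow. After quantile normalization they were miR-133a-3p -0.50, miR-5100 -0.28, miR-133b-3p -0.24, miR-499-5p -0.012, let-7b-5p 0.0041, miR-146a-5p 0.018, miR-497a-5p 0.076 and miR-3968 0.076. After scaling to the 75th percentile they were miR-181a-5p -0.26, miR-25-3p -0.15, miR-106b-5p -0.14, miR-21a-5p -0.033, miR-185-5p -0.021, miR-152-3p -0.015, miR-451a 0.11 and miR-3968 0.11. Without normalization they were miR-144-3p 0.12, miR-22-3p 0.13, miR-146a-5p 0.19, miR-378a-3p 0.31, miR-378c 0.38, miR-378b 0.41, miR-30a-5p 0.45, miR-378d 0.48, miR-486a-5p 0.49, miR-6366 0.56, miR-133a-5p 0.58, miR-3963 0.59, miR-30e-5p 0.60, miR-497a-5p 0.66, let-7i-5p 0.67, miR-26a-5p 0.78, miR-29c-3p 0.82, let-7b-5p 0.83, miR-451a 0.95 and miR-3968 0.95. In the deposited values they were miR-93-5p -0.78, miR-139-5p -0.73, miR-223-3p -0.56, miR-22-5p -0.27, miR-142a-3p -0.24, miR-181a-5p -0.13, miR-125a-5p -0.023, miR-29b-3p -0.015, miR-29a-3p -0.014, miR-3963 0.014 and miR-6366 0.075. With no filter they were miR-133b-3p -0.089, miR-181a-5p -0.043, miR-133a-3p -0.035, miR-451a 0.013 and miR-497a-5p 0.017. With detection required in 1 group it was miR-181a-5p -0.035. With the control feature covariate they were miR-181a-5p -0.74, miR-145a-5p -0.62, miR-100-5p -0.55, miR-130a-3p -0.26, let-7c-5p -0.23, miR-29a-3p -0.10, miR-5100 -0.030, miR-223-3p -0.022, miR-378b 0.044, let-7i-5p 0.19, miR-133a-5p 0.27, miR-486a-5p 0.29, miR-146a-5p 0.47, miR-451a 0.58 and miR-144-3p 0.69. With the miRNAs numbered below 1000 alone they were miR-181a-5p -0.42, miR-25-3p -0.32, miR-106b-5p -0.31, miR-133b-3p -0.20, miR-152-3p -0.19, miR-185-5p -0.14, miR-21a-5p -0.14, miR-133a-3p -0.14, miR-499-5p -0.088, miR-99a-5p -0.078, miR-100-5p -0.058, miR-145a-5p -0.032, miR-27b-3p -0.018, miR-199b-5p -0.014 and miR-130a-3p -0.0066. Of these, miR-25-3p and miR-106b-5p passed the threshold as lower in D. With 1 array left out, ranges that cross 0 were let-7b-5p -0.16 to 0.049, miR-133a-3p -0.023 to 0.044, miR-133b-3p -0.023 to 0.061, miR-146a-5p -0.26 to 0.13, miR-181a-5p -0.16 to 0.15, miR-25-3p -0.032 to 0.13, miR-497a-5p -0.13 to 0.0039 and miR-499-5p -0.10 to 0.15. The cause of these differences was not tested.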
